A study of Gallus gallus with 48 samples.

Results

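Striated muscle transcripts were followed in the retina and retinal pigment epithelium (RPE) of chick eyes through 6 genes: TNNC2, TNNI2, TNNT3, MYL1, ACTA1 and MYPN. The genes were selected on their signals in these eyes, where most of them had stood out in lens eyes after 3 days of a -15 diopter (D) lens, so the values of that condition, and the counts of calls in fits that hold it, are given below as a description and are no test of these genes. Every probe set that the platform annotation assigns to 1 of the 6 symbols was taken, which gave 12 of the 38382 probe sets tested and 6 of 13009 named genes. TNNC2, TNNI2 and ACTA1 had 1 probe set each, TNNT3 had 2, MYL1 had 3 and MYPN had 4. Where 1 value per gene is given, it is that of the brightest probe set, ranked by its mean over the 48 eyes.

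The series compared lens-wearing eyes with the open fellow eyes of the same birds. White Leghorn chicks of 1 week of age, kept on a 12-hour light cycle, wore a -15 D or a +15 D lens on 1 eye for 6 hours or 3 days, with 6 birds in each of the 4 conditions and an untreated control eye in every bird. No allele, transgene or drug enters the design, and control eyes share the bird, its age and its housing with the lens eyes. Retina and RPE were collected as a single piece from each of the 48 eyes, and their RNA was hybridised to 1 Affymetrix Chicken array each, and birds are numbered 1 to 6 within a condition. In such bulk tissue, fewer cells of a type and less RNA per cell cannot be told apart. The arrays correlated with each other at 0.953 to 0.997 over all probe sets, and no 2 were identical. The photoreceptor and RPE markers listed for the tissue were above background on average, apart from SLC45A2 among 14 RPE genes.

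Striated muscle contracts when calcium released from the sarcoplasmic reticulum binds the troponin complex on the thin filament, which lets myosin heads pull on actin. Skeletal fibres are classed as fast or slow by the isoforms of myosin and troponin that they use. The neural retina and the RPE hold no striated fibres, but the bird eye has striated muscle nearby, in the iris and ciliary body and in the extraocular muscles attached to the sclera, which is a known difference from the mammalian eye, where the intraocular muscles are smooth.

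Of the 48 eyes, 2 carried a strong signal of most members, and both were lens eyes of the -15 D, 3-day condition, in birds 5 and 6. A probe set was called raised where it lay at least 1 log2 above its own median over all 48 eyes. In each of these 2 eyes 5 of the 6 members were raised, also at 2 log2, and MYPN was not. Of the other 46 eyes, 42 had no member raised, 2 had 1 and 2 had 2. None of the 24 untreated eyes had 3 or more. Background was set at 4.50 log2, the 95th percentile of the mean signals of 541 probe sets for viral sequences. On their brightest probe sets all 6 members lay above it in those 2 eyes and in no other, and the same held at 5.49 log2, the 99th percentile. At 4.50 log2 MYL1 alone was confined to those 2 eyes. ACTA1, TNNI2 and MYPN were above that level in all 48 eyes, TNNT3 in 47 and TNNC2 in 19. The other 4 lens eyes of the condition, and the control eyes of birds 5 and 6 themselves, did not show the signal. A drop in the raised limit to 0.5 log2 added 1 eye with 3 or more members, the lens eye of bird 5 after 6 hours of +15 D.

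**Figure D1:**
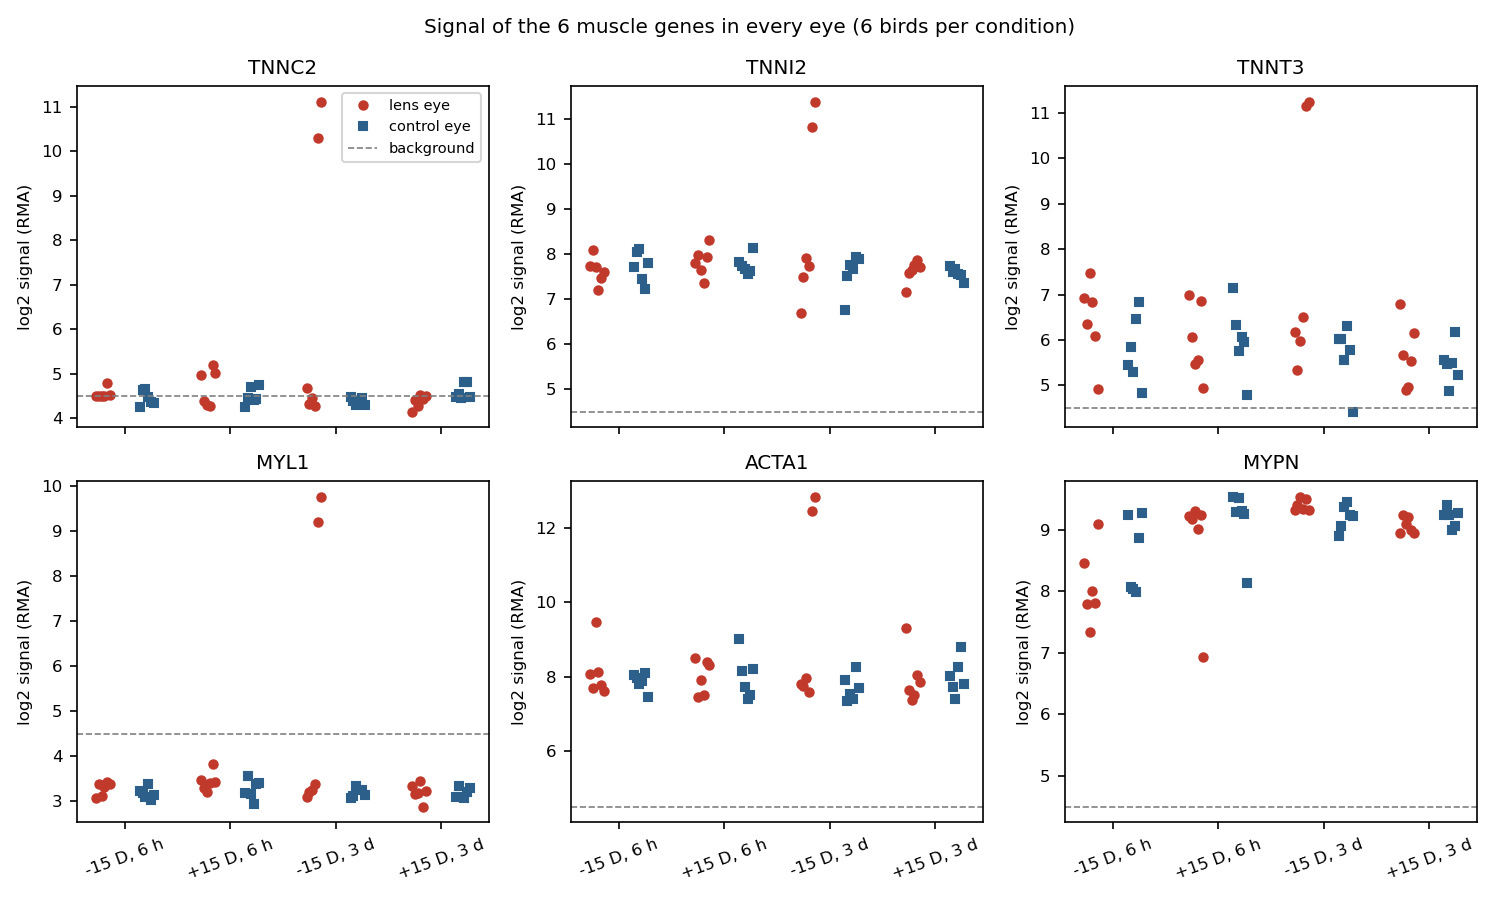
Signal of the brightest probe set of each muscle gene (y axis, RMA log2 signal) in every eye by condition (x axis), with lens eyes as circles left of control eyes as squares, 6 birds each, and the background of 4.50 log2 as a dashed line. The 2 isolated points of TNNC2, TNNI2, TNNT3, MYL1 and ACTA1 are the lens eyes of birds 5 and 6 after 3 days of -15 D, and MYPN shows no such points.

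The troponin complex supplied 3 of the members. TNNC2 encodes fast skeletal troponin C, the subunit that binds calcium. Its signal was 10.30 log2 in the lens eye of bird 5, against 4.45 in that bird's control eye. In bird 6 it was 11.13 in the lens eye, against 4.28 in the control eye. The other 46 eyes ran from 4.15 to 5.20 with a median of 4.47, so they straddle background and lie far below both lens eyes. Since both control eyes were below background, the difference is a bound, and TNNC2 was at least 55.9-fold higher in the lens eye of bird 5 and at least 98.8-fold higher in that of bird 6.

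TNNT3 encodes fast skeletal troponin T, which ties the complex to tropomyosin. The brighter of its 2 probe sets read 11.15 log2 in the lens eye of bird 5, against 5.78 in the control eye, and 11.25 in the lens eye of bird 6, against 4.43 in the control eye. The other 46 eyes ran from 4.43 to 7.48 with a median of 5.90. TNNT3 therefore had a low but varied signal elsewhere, and its gap to the highest other eye was 3.67 and 3.77 log2. The bird 5 difference corresponds to 41.5-fold. The dimmer probe set, at 8.61 in the lens eye of bird 5 against 5.19 in the control eye and at 8.96 in the lens eye of bird 6 against 5.17 in the control eye, moved in the same direction by less, with differences of 3.42 and 3.79 log2.

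TNNI2 encodes fast skeletal troponin I, the inhibitory subunit. It read 10.83 log2 in the lens eye of bird 5, against 7.94 in the control eye, and 11.39 in the lens eye of bird 6, against 7.90 in the control eye. Its differences of 2.90 and 3.49 log2, or 7.44-fold and 11.2-fold, were below those of TNNC2 and of the bright TNNT3 probe set. Unlike these, TNNI2 was well above background in all 48 eyes, with a range of 6.69 to 8.32 in the other 46. In the RefSeq table of assembly GRCg7b, TNNT3 and TNNI2 lie on chromosome 5 with 3 protein-coding entries between them, PRR33, LSP1P1 and LOC124418006.

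MYL1 encodes the essential light chain of fast skeletal myosin and differed strongly on 2 of its 3 probe sets. The brightest read 9.18 log2 in the lens eye of bird 5, against 3.26 in the control eye, and 9.75 in the lens eye of bird 6, against 3.14 in the control eye. A second probe set read 9.98 in the lens eye of bird 5 against 3.16 in the control eye, and 10.24 in that of bird 6 against 2.89, with differences of 6.82 and 7.35 log2. On the brightest probe set all other 46 eyes were below background, at 2.88 to 3.83, so MYL1 was detected by it in those 2 eyes only. The folds are lower bounds of 25.7 for bird 5 and 38.1 for bird 6 on that probe set. The remaining MYL1 probe set stayed below background in all 48 eyes, and read 2.79 in the lens eye of bird 5, against 3.14 in the control eye, and 3.21 in the lens eye of bird 6, against 2.90 in the control eye. The 3 probe sets of MYL1 thus disagree, and which transcripts each one reads was not tested.

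ACTA1 encodes skeletal alpha-actin, the core of the thin filament. It read 12.45 log2 in the lens eye of bird 5, against 8.26 in the control eye, and 12.83 in the lens eye of bird 6, against 7.68 in the control eye. The differences of 4.19 and 5.15 log2 correspond to 18.3-fold and 35.4-fold. ACTA1 was above background in all 48 eyes, and the other 46 ran from 7.35 to 9.48 with a median of 7.83. Actins are near-identical in coding sequence, and how far this probe set also reads other actins was not tested.

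MYPN encodes myopalladin, a protein of the sarcomere's Z-disc, and did not follow the others. Its brightest probe set read 9.50 log2 in the lens eye of bird 5, against 9.24 in the control eye, and 9.32 in the lens eye of bird 6, against 9.22 in the control eye. The other 46 eyes ran from 6.93 to 9.54 with a median of 9.21, so both lens eyes lie inside that range. The other 3 MYPN probe sets differed by between -0.27 and 0.43 log2 in the 2 birds.

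Set side by side, the 5 genes moved together in the same 2 birds, and the lens eye of bird 6 read higher than that of bird 5 for each of the 7 member probe sets that carried the signal, by 0.10 log2 for the bright TNNT3 probe set up to 0.82 for TNNC2. The same was true of 97 of all 121 probe sets that were at least 1 log2 higher in both birds, with a median gap of 0.56. These 121 are 0.315% of the probe sets tested, and the 7 member probe sets are among them. At 2 log2 the count was 47 (0.122%). No probe set was lower by 1 log2 in both birds. In both lens eyes 7 of the 12 member probe sets lay above all other 46 eyes, where 0.36% of all probe sets did, and 0.53% of all genes on their brightest probe set. Since these values chose the members, nothing is read from the shares.

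Over the 6 birds of -15 D for 3 days, the members' mean lens minus control difference was 1.55 ± 2.27 log2 (SD, n = 6). By bird it was 0.10, 0.01, 0.20, 0.06, 4.08 and 4.84 for birds 1 to 6, so the mean describes no bird of the condition, and without bird 6 it was 0.89. TNNC2 averaged 6.53 ± 3.26 log2 in lens eyes and 4.38 ± 0.08 in control eyes (SD, n = 6 each), with lens eyes at 4.27, 4.57 and 11.13 (lowest, median and highest) and control eyes at 4.28, 4.38 and 4.48. In the 4 birds without the signal the lens minus control difference lay between -0.10 and 0.19 log2 for TNNC2, -0.68 and 0.42 for TNNT3, -0.09 and 0.13 for MYL1, -0.12 and 0.42 for ACTA1 and -0.07 and 0.15 for TNNI2.

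In the fit of all probe sets with limma and the bird as block, 27 probe sets passed an adjusted p of 0.05 after 3 days of -15 D (0.0703%), and 0 of the 12 member probe sets were among them. With array quality weights 6 member probe sets were called, of TNNC2, MYL1 (2), ACTA1, TNNI2 and MYPN, against 5.95% of all probe sets. With only the 12 arrays of the condition the count was 1, the MYPN probe set with a difference of 0.29 log2, against 1.71%. Without birds 5 and 6, 1 probe set was called in all (0.00261%) and no member. The values of this condition chose the genes, so nothing is read from these counts or from their distance to the shares.

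**Figure D2:**
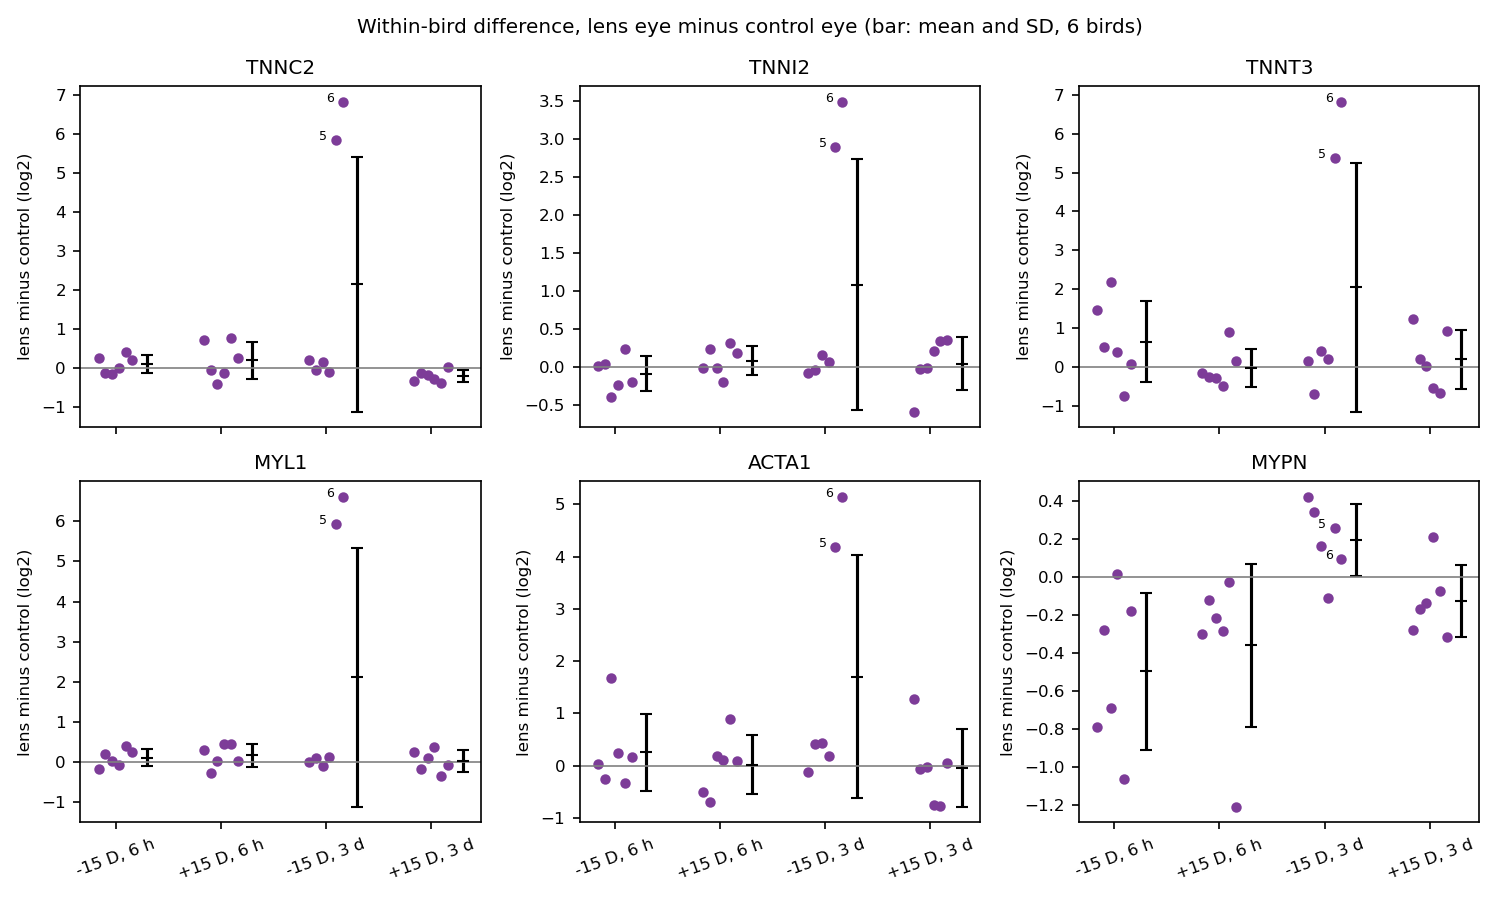
Within-bird difference of each muscle gene, lens eye minus control eye (y axis, log2), in the 4 conditions (x axis). Each point is a bird and the bar gives the mean and SD of 6 birds; birds 5 and 6 are numbered at -15 D, 3 days, where 5 of the genes differ by 2.90 to 6.84 log2 in those birds.

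The other 3 conditions were tested, although the genes were chosen with earlier results of all these data known. After 6 hours of -15 D the members' mean difference was 0.09 ± 0.20 log2, above 0 in 5 of 6 birds. After 6 hours of +15 D it was 0.01 ± 0.27, above 0 in 2 of 6 birds, and after 3 days of +15 D it was -0.02 ± 0.21, also above 0 in 2 of 6 (SD, n = 6 each). No member probe set passed limma's adjusted p of 0.05 in these conditions, where 15 (0.0391%), 3 (0.00782%) and 2 (0.00521%) of all probe sets did, in the same order. With array quality weights 9 probe sets passed after 3 days of +15 D (0.0234%), again with 0 members. In the same weighted fit 296 passed after 6 hours of -15 D (0.771%), 1 of them a MYPN probe set. After 6 hours of +15 D 3 passed (0.00782%), with 0 members. In the main fit, 3, 2 and 0 of the 12 member probe sets passed at an unadjusted p of 0.05, against 3885, 2883 and 1505 of all 38382. The lowest adjusted p of a member in the main fit was 0.0656, 0.382 and 1.0. That fit takes 1 spread from all 48 arrays, which for the 5 genes is set largely by birds 5 and 6 of -15 D, 3 days. For TNNC2 its standard error was 0.625 log2, against 0.115 in the fit without both birds and 0.067 in the fit of the 12 arrays of +15 D, 3 days, so the main fit could hardly call these genes. Without both birds, 14 (0.0365%), 4 (0.0104%) and 2 (0.00521%) of all probe sets were called and again 0 of the 12 member probe sets. The lowest adjusted p of a member was then 0.103, 0.442 and 1.0. At an unadjusted p below 0.05 there were 4, 2 and 0 member probe sets, against 3693, 2691 and 1438 of all probe sets. With only the arrays of each condition, 0 of all probe sets and 0 members were called, and the lowest adjusted p of a member was 0.311, 0.888 and 1.0. In that fit 3, 2 and 1 member probe sets had an unadjusted p below 0.05, against 3636, 1629 and 1274 of all probe sets.

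Whether the lens effect differed was asked of -15 D minus +15 D at 6 hours and of 3 days minus 6 hours of +15 D. In these contrasts 0 of all probe sets and 0 members passed. At an unadjusted p below 0.05 there were 1 and 0 member probe sets, against 1362 and 1332 of all probe sets. The contrasts that hold the -15 D, 3-day values called 0 probe sets for -15 D minus +15 D at 3 days and 4 (0.0104%) for 3 days minus 6 hours of -15 D, and no member, which is a description for the reason above.

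TNNC2 had 4.49, 4.51 and 4.78 log2 (lowest, median and highest) in lens eyes after 6 hours of -15 D, against 4.25, 4.42 and 4.66 in control eyes, and 4.26, 4.68 and 5.20 in lens eyes after 6 hours of +15 D, against 4.24, 4.45 and 4.74 in control eyes. After 3 days of +15 D it had 4.15, 4.42 and 4.52 in lens eyes, against 4.46, 4.51 and 4.81 in control eyes. The groups overlap in each condition. Within birds the TNNC2 difference was 0.09 ± 0.23 log2 after 6 hours of -15 D, above 0 in 4 of 6 birds. It was 0.19 ± 0.48 after 6 hours of +15 D, above 0 in 3 of 6. After 3 days of +15 D it was -0.21 ± 0.15, above 0 in 1 of 6 (SD, n = 6 each), and no fit called it. TNNT3 spread most, at 4.93, 6.59 and 7.48 in lens eyes after 6 hours of -15 D, against 4.84, 5.65 and 6.84 in control eyes, with a mean difference of 0.65 ± 1.04 (SD, n = 6). MYL1 stayed below background in all 36 eyes of these 3 conditions on its brightest probe set. TNNI2 kept within 7.15 and 8.32 in the 3 conditions. ACTA1 had 7.60, 7.91 and 9.48 in lens eyes after 6 hours of -15 D, against 7.44, 7.92 and 8.10 in control eyes, and 7.37, 7.75 and 9.29 in lens eyes after 3 days of +15 D, against 7.39, 7.91 and 8.80 in control eyes.

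In untreated eyes no member passed the test between the times. Limma compared the 12 control eyes of the 3-day birds with the 12 of the 6-hour birds, with the lens power of the other eye as covariate. It called 748 of 38382 probe sets (1.95%) and 0 of the 12 member probe sets. These are different birds, and the 3-day birds were older at collection, so time, age and set of birds cannot be told apart. No member probe set had an unadjusted p below 0.05, where 5348 of all probe sets did. The lowest adjusted p of a member was 0.411. TNNC2 averaged 4.49 ± 0.17 log2 at 3 days and 4.48 ± 0.17 at 6 hours. ACTA1 averaged 7.84 ± 0.43 at 3 days and 7.93 ± 0.44 at 6 hours, and TNNT3 5.58 ± 0.55 at 3 days and 5.90 ± 0.73 at 6 hours (SD, n = 12 each). Of the other striated genes, SMPX, a small muscle protein, was higher on 3 probe sets in the 3-day birds. The differences were 0.64, 0.94 and 0.65 log2, with limma's adjusted p of 0.0279, 0.0347 and 0.0390. MYH15, a myosin heavy chain, was higher by 0.40 (adjusted p 0.00557). LMOD3, which nucleates actin in muscle, was lower on 2 probe sets, by 0.50 and 0.56 log2 (adjusted p 0.00342 and 0.000197). UNC45B, a chaperone of muscle myosin, was lower by 0.25 (adjusted p 0.0496).

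The rest of the sarcomere was examined through 96 further striated muscle genes, of which 78 had a probe set of their own. In the lens eyes of birds 5 and 6, 30 and 33 of these were raised by at least 1 log2 over their median, against at most 3 and a median of 1 in any of the other 46 eyes. In both birds, 26 of the 78 (33.3%) differed by at least 1 log2 between the eyes, where 74 of 13009 genes did (0.569%). The 74 include these 26. Birds 5 and 6 were picked out by their muscle signal, so nothing is read from this share. All 26 had both lens eyes above all other 46 eyes. A further 33 of the 78 stayed within 0.5 log2 of 0 in both birds. Some of these were bright in all eyes, such as ATP2A2 and ACTN2, at 13.1 and 12.1 log2 on average over the 48 eyes. Others, such as NRAP and MUSK, were below background on average. A small addition could go unseen in either kind, so whether the muscle signal lacked these genes was not tested. Of the 52 contractile genes, 19 (36.5%) differed by 1 log2 in both birds, with medians of 0.57 and 0.63 log2 in birds 5 and 6. Of the 26 genes of calcium handling, energy supply and regulation, 7 (26.9%) did, with medians of 0.45 and 0.50. Over all genes the medians were 0.03 and 0.00. In the main fit no gene of either list was called in any lens contrast at an adjusted p of 0.05. That fit called at most 27 of all probe sets (0.0703%) in any of them. Its spread takes in birds 5 and 6, so the absence of calls says little of genes high in those birds only. Calls of the other fits are not given for these lists.

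The 10 genes whose levels over the 48 eyes were most like the members' mean were all muscle genes, with Pearson's r from 0.94 to 0.97. These correlations rest on the same 2 eyes, since without them r over 46 eyes lay between -0.01 and 0.56, and no p is given. MYL10, a myosin regulatory light chain, led them. It read 11.75 log2 in the lens eye of bird 5 and 12.78 in that of bird 6, against at most 7.50 elsewhere, and differed from the control eyes by 6.35 and 7.30 log2. Among myosin heavy chains, MYH1C differed by 3.84 log2 in bird 5 and 5.06 in bird 6, MYH1B by 3.98 and 5.05, and MYH7, the slow and cardiac beta chain, by 3.04 and 3.79. The MYH1 probe sets are of the kind that can read several of these near-identical genes, and their assignment is uncertain. MYL2 and MYL3, the regulatory and essential light chains of slow and ventricular myosin, differed by 4.28 and 3.80 log2 in bird 5 and by 5.34 and 5.34 in bird 6.

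Of the listed genes of energy supply, CKMT2 and MB stood with them. AMPD1, below background on average, differed by 0.43 log2 in both birds, and FABP3 by 0.47 in bird 5 and 0.50 in bird 6. CKMT2, the sarcomeric mitochondrial creatine kinase, differed by 4.97 log2 in bird 5 and 6.07 in bird 6. MB, myoglobin, differed by 3.99 in bird 5 and 6.73 in bird 6, a gap between the birds that no member showed. MYOT, the Z-disc protein myotilin, differed by 3.39 and 4.62, and HSPB3, a small heat shock protein of muscle, by 2.30 and 3.08. SRL, the calcium-binding sarcalumenin of the sarcoplasmic reticulum, differed by 2.12 and 2.76 and had the next largest mean in its list, 0.91 log2 over 6 birds, after MB (1.96) and CKMT2 (1.81). Among contractile genes the largest means were those of MYL10 (2.45), MYL3 (1.67) and MYH1B (1.63). These are averages of 2 high birds and 4 near 0.

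Some further genes are named after their values were seen. The slow and cardiac troponins differed as well, TNNC1 by 1.71 and 2.68 log2 in birds 5 and 6, TNNI1 by 1.19 and 3.65 and TNNT2 by 2.10 and 3.73. The transcription factor MYOD1, which specifies skeletal muscle, was below background on average but read 4.86 and 5.42 in the 2 lens eyes, against at most 3.92 in the other 46. MYOG, a later factor of the same family, differed by 0.08 and 0.07. MYLPF, the fast regulatory light chain, differed by 0.07 and 0.64, and PVALB, parvalbumin, by 0.32 and 0.29. Isoforms of fast and of slow or cardiac muscle were thus both among the genes that differed in the 2 birds.

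**Figure D3:**
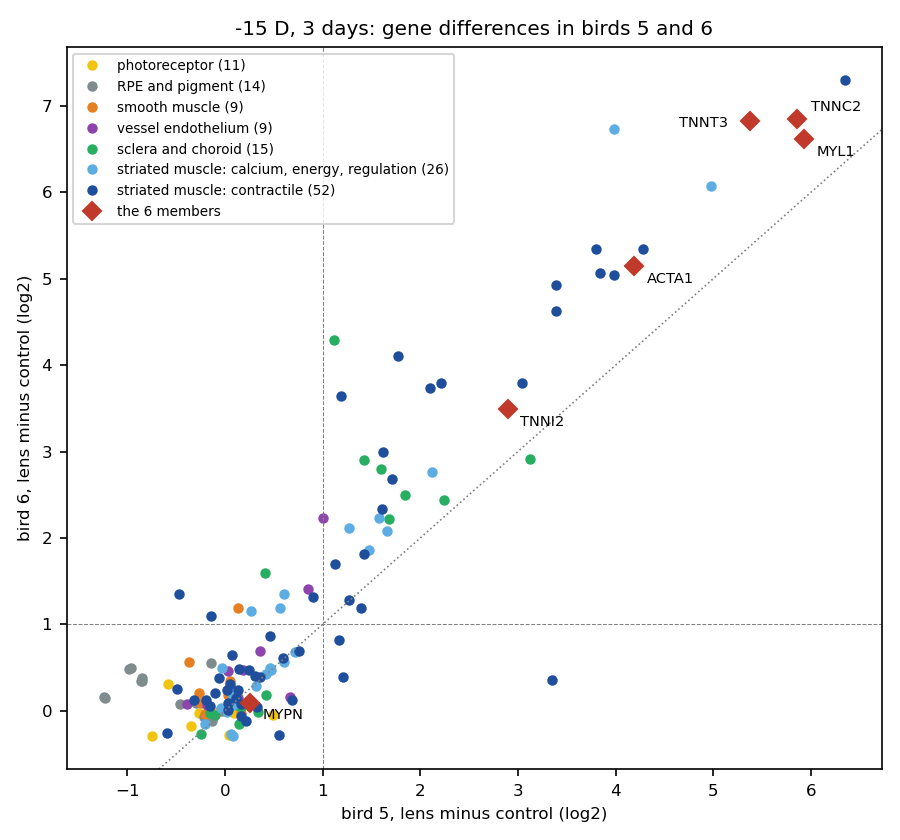
Lens minus control difference of listed genes in bird 5 (x axis, log2) against bird 6 (y axis, log2) after 3 days of -15 D. The 6 muscle genes are diamonds, with dashed lines at 1 log2 and a dotted line of equality. Genes of blood cells and of lens and anterior segment are not drawn. TNNC2, TNNT3, MYL1, ACTA1 and TNNI2 lie at the upper right with many contractile genes, MYPN lies near 0, and 7 of the 15 sclera and choroid genes lie past 1 log2 in both birds.

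Other cell types were measured in the same 2 birds. Of 15 genes of sclera and choroid, the connective and vascular coats around the retina, 7 (46.7%) were at least 1 log2 higher in the lens eye of both birds, with medians of 0.42 in bird 5 and 1.59 in bird 6, and LUM and PRELP were below background on average. The 7 were COL1A1, COL1A2, COL3A1, LUM, DCN, OGN and POSTN, named after their values were seen. COL2A1, ACAN, MATN1 and MATN3 differed by -0.15, 0.17, 0.14 and 0.34 in bird 5. In bird 6 they differed by -0.02, 0.04, -0.15 and -0.01, so the list did not move as a whole. None of the 15 had both lens eyes above all other 46 eyes, where 31 of the 78 striated genes and 0.53% of all genes did. Birds 5 and 6 were picked out by their muscle signal, so nothing is read from this contrast. Of 9 smooth muscle genes 0 differed by 1 log2 in both birds (medians 0.03 and 0.21), with ACTA2, smooth muscle alpha-actin, below background on average. The count was 0 of 14 for RPE genes (medians -0.65 and 0.15), 0 of 11 for photoreceptors (-0.12 and -0.05), 0 of 9 for blood cells (0.22 and -0.19), 1 of 9 for vessel endothelium (0.19 and 0.46) and 1 of 21 for lens and anterior segment (0.00 and -0.03). Named after their values were seen, the last 2 were CDH5 (1.00 and 2.23) and FOXC2 (1.80 and 1.46). Of the globins, HBA1 differed by 0.995 and 0.87, HBAD by 0.92 and 0.65 and HBZ by 0.23 and -0.14. HBBR, below background on average, differed by -0.14 and -0.19. The part of these other tissues in the muscle signal was not tested. The 3' to 5' signal ratio of the array's actin control probe sets, a measure of RNA integrity and amplification, was also compared. It was higher in the lens eye by 0.51 log2 in bird 5 and 0.33 in bird 6, against 0.18, 0.20, 0.46 and 0.25 in birds 1 to 4. The value of bird 5 was the highest of all 24 birds. So was its difference in the GAPDH ratio, at 0.22 log2, against 0.05 in bird 6. The part of these ratios in the muscle signal was not tested.

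**Figure D4:**
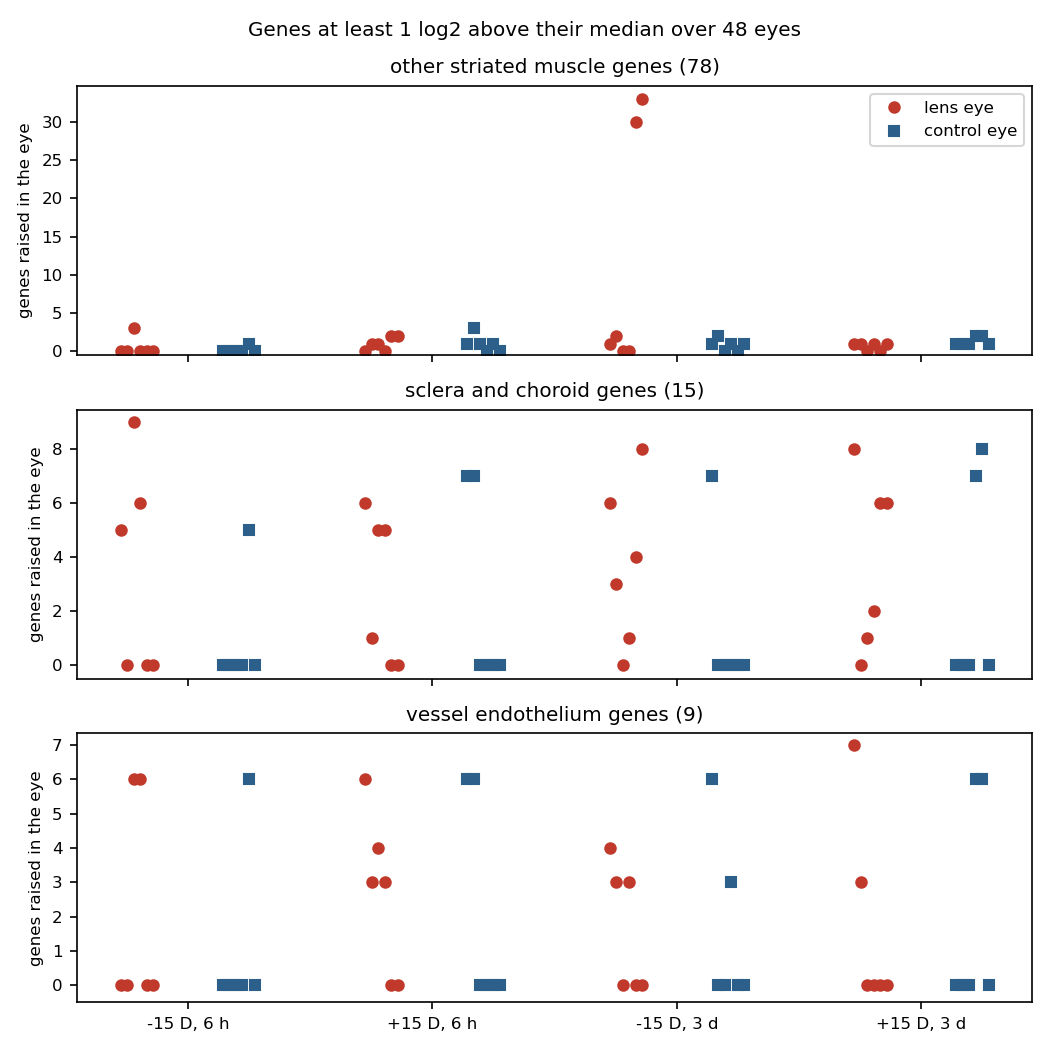
Number of genes raised by at least 1 log2 over their median (y axis) in each eye by condition (x axis), for 78 striated muscle, 15 sclera and choroid and 9 vessel endothelium genes, with lens eyes as circles and control eyes as squares. The striated genes reach 30 and 33 in 2 lens eyes of -15 D, 3 days, and at most 3 elsewhere, while sclera and choroid genes are raised in eyes of all 4 conditions, lens and control.

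Counted at 0.5 log2, the eye nearest to these 2 was the lens eye of bird 5 after 6 hours of +15 D. It had 4 members raised at that limit and 0 at 1 log2, where 2 other eyes had 2. In this nearest eye TNNC2 read 5.20 log2, against 4.44 in the control eye, and TNNT3 6.85 against 5.96. ACTA1 read 8.40 against 7.50 and the second MYL1 probe set 4.72 against 2.96. For TNNC2 and the 2 MYL1 probe sets that carried the signal, only the lens eyes of birds 5 and 6 of -15 D, 3 days, read higher. On that MYL1 probe set the eye was above background, so all 6 genes had a probe set above background in it too. The dimmer TNNT3 probe set went the other way, at 5.06 against 5.54. Of the 10 most similar genes, MYL10 differed by 2.05 log2, MB by 0.82, MYH1C by 0.35, MYOT by 0.32 and MYH7 by 0.12, while the differences of MYL2, CKMT2, MYH1B, MYL3 and HSPB3 lay between -0.10 and 0.05. The lens and control eyes of this bird differed by 1 log2 at only 23 probe sets, 12 of them higher in the lens eye, which was the lowest number of all 24 birds. This eye was chosen after its values were seen.

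Outside the 2 birds few pairs of members moved together. Over the within-bird differences of the other 22 birds, TNNT3 and ACTA1 correlated at r = 0.72 and rho = 0.50, ACTA1 and TNNI2 at r = -0.61 and rho = -0.46, and the remaining 13 pairs lay between -0.39 and 0.33 in r. No r is given over all 24 birds, because birds 5 and 6 form a cluster of their own. In these 22 birds ACTA1 and TNNT3 differed most where sclera and choroid genes did. The 22 include the other 4 birds of -15 D, 3 days, and birds 5 and 6 were left out after their values were seen. The p values over these 22 birds are therefore given as a description. The ACTA1 difference correlated with the mean of the 15 sclera and choroid genes at r = 0.86 (permutation test, p = 1e-05, the smallest that 100000 resamples give, adjusted p = 9e-05 over 18 relations) and rho = 0.76 (p = 0.00011, adjusted 0.00099). The r was 0.73 without the 2 birds farthest from the median, 0.81 in the 12 birds at 6 hours and 0.92 in the 10 at 3 days.

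TNNT3 correlated with the same mean at r = 0.71 (permutation p = 0.00029, adjusted 0.00102) and rho = 0.56 (p = 0.00774, adjusted 0.0322), with r = 0.50 without the 2 farthest birds, 0.70 at 6 hours and 0.72 at 3 days. TNNI2 ran the other way, at r = -0.72 (permutation p = 0.00012, adjusted 0.00054) and rho = -0.55 (p = 0.00895, adjusted 0.0322), with r = -0.53 without the farthest, -0.77 at 6 hours and -0.68 at 3 days. The mean of 9 smooth muscle genes gave similar values, with r of 0.87 for ACTA1, 0.70 for TNNT3 and -0.75 for TNNI2. Those 9 include the actins ACTA2 and ACTG2, and how far the ACTA1 probe set reads other actins was not tested. TNNC2 and MYL1 passed no adjusted threshold against either list (r from -0.26 to -0.03). How many of all genes follow these means as closely is not given here, so the p values do not single out sclera and choroid. In bird 3 after 6 hours of -15 D their mean difference was 2.98, beside 3.41 for vessel, 1.75 for blood cell and 1.38 for RPE genes. In bird 1 after 3 days of +15 D it was 2.35, beside 2.79, 1.41 and 0.66. The photoreceptor mean was -0.27 and -0.07 in these birds. The members share arrays with the lists, and the cause of these relations was not tested.

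**Figure D5:**
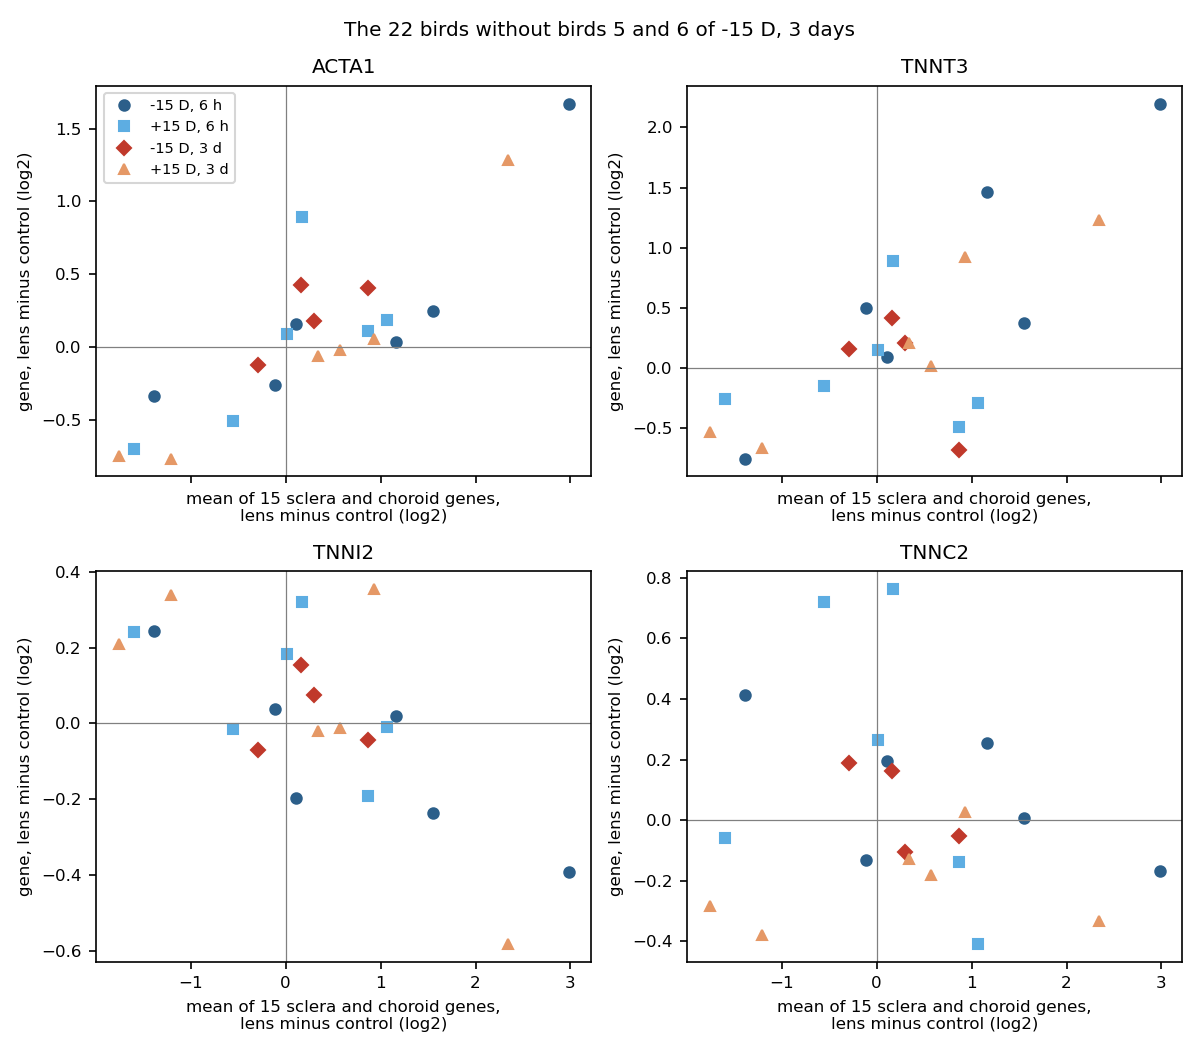
Lens minus control difference of ACTA1, TNNT3, TNNI2 and TNNC2 (y axis, log2) against the mean difference of 15 sclera and choroid genes (x axis, log2) in the 22 birds without birds 5 and 6 of -15 D, 3 days, with a symbol per condition. ACTA1 and TNNT3 run up with the mean (r 0.86 and 0.71), TNNI2 runs down (-0.72), and TNNC2 shows no clear relation (-0.21).

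In the other eyes with a raised member, only TNNT3 or ACTA1 was raised on the brightest probe sets. Among these eyes was the untreated eye of bird 1 after 6 hours of +15 D, at 7.14 log2 for TNNT3 and 9.015 for ACTA1. In the lens eye of that bird TNNT3 was raised, at 6.99, and TNNC2 was above background, at 4.96, but not raised. The lens eye of bird 3 after 6 hours of -15 D had TNNT3 at 7.48 log2 and ACTA1 at 9.48, both the highest of the other 46 eyes, against 5.29 for TNNT3 and 7.81 for ACTA1 in its control eye. In that lens eye 9 of 15 sclera and choroid genes, 6 of 9 vessel endothelium genes and 8 of 14 RPE genes were raised, and 1874 probe sets differed by 1 log2 between its eyes, the most of any bird. TNNC2 and MYL1 were not raised in it. By contrast, 222 probe sets differed in bird 5 and 201 in bird 6 of -15 D, 3 days.

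MYPN was at 8.09 ± 0.61 log2 in lens eyes after 6 hours of -15 D and at 8.58 ± 0.62 in control eyes (SD, n = 6 each), with 7.34, 7.91 and 9.10 in lens eyes and 7.995, 8.47 and 9.28 in control eyes as lowest, median and highest. The within-bird difference was -0.50 ± 0.41, below 0 in 5 of 6 birds, and missed the threshold (limma's adjusted p 0.109). On the second probe set it was -0.49 ± 0.35, below 0 in 6 of 6, with an adjusted p of 0.0656, and with array quality weights this probe set passed, at -0.44 log2 with an adjusted p of 0.0406, where 0.771% of all probe sets passed. After 6 hours of +15 D the difference was -0.36 ± 0.43, below 0 in 6 of 6 birds (adjusted p 0.660), after 3 days of -15 D it was 0.19 ± 0.19, and after 3 days of +15 D it was -0.13 ± 0.19 (adjusted p 1.0).

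The 4 MYPN probe sets correlated with each other at r of 0.59 to 0.97 over the 48 eyes, so they vary together. The MYPN difference correlated with the difference in the actin 3' to 5' ratio at r = 0.47 over 22 birds (permutation p = 0.0282, adjusted 0.0724) and rho = 0.49 (p = 0.0223, adjusted 0.0572), which did not pass adjustment. The r was 0.61 without the 2 farthest birds, 0.39 at 6 hours and 0.21 at 3 days. The gene whose level over 48 eyes was most like that of MYPN was KIAA0232, at r = 0.97, chosen after its values were seen.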

How the data were processed

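Values were taken from the deposited log2 signals per probe set of 48 arrays. The authors made them with RMA and used Partek, per the submitters' processing notes, with no versions stated. RMA gives the probe intensities of all arrays 1 distribution and compresses dim signals, so differences from values below background are understated. The array medians of the probe-set values still ran from 6.38 to 6.50 log2. Precision is limited by the number of arrays. The 153 control probe sets were left out, which left 38382, of which 27168 had 1 symbol in the platform annotation.

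Within-bird differences were tested two-sided by limma (version 3.58.1, R 4.3.3; lmFit, then eBayes) on all 48 arrays, with the bird as block and Benjamini-Hochberg adjustment over all probe sets, at 0.05. It was tested on simulated data. Lens and control eyes are paired by the bird number in the titles, which names 1 animal. The deviations of its eyes from their group means correlated above 0.1 for 20 of the 24 animals (median 0.42, lowest -0.23, highest 0.85).

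The 6 genes, the 9 gene lists and the rules for naming were chosen with earlier results of these data known. Named by these rules besides the 6 genes were the 10 most correlated with their mean, and on each striated list the 3 with the largest mean at -15 D, 3 days, and any called. Some markers below background on average were named too. The other genes named above, AMPD1 and FABP3 among them, fall outside these rules. Sequences and promoter motifs were not analysed here.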

Additional observations from a re-analysis of the deposited data

Results flagged for a closer look

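Over 72 groups of 6 values (the 6 genes in 8 groups of eyes and their differences in 4 conditions), 8 held a highest or lowest value far from the rest by Dixon's criterion, which chance gives in about 1 in 20 groups. The lens eyes of birds 5 and 6 of -15 D, 3 days, do not appear, because they stand apart as a pair. TNNC2 read 4.78 log2 in the lens eye of bird 5 after 6 hours of -15 D, the highest of its group, close to the background of 4.50. ACTA1 read 9.48 in the lens eye of bird 3 after 6 hours of -15 D, and its difference there was 1.67. ACTA1 read 9.29 in the lens eye of bird 1 after 3 days of +15 D. In both of these eyes many sclera, choroid and vessel genes were raised as well, 9 of 15 and 6 of 9 in the first and 8 of 15 and 7 of 9 in the second. TNNI2 was low in both eyes of bird 1 after 3 days of -15 D, at 6.69 in the lens eye and 6.76 in the control eye, of which the control eye was far from its group. MYPN was lowest in both eyes of bird 6 after 6 hours of +15 D, at 6.93 in the lens eye and 8.14 in the control eye, and its difference in that bird was -1.21. What sets these values apart was not tested.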

How the results depend on the processing

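The count of eyes with 3 or more members raised was 2 at 1 log2 and at 2 log2, and 3 at 0.5 log2. The members' mean difference, with 1 bird left out in turn, ran from 0.0153 to 0.14 after 6 hours of -15 D, -0.094 to 0.054 after 6 hours of +15 D, 0.89 (without bird 6) to 1.86 after 3 days of -15 D and -0.075 to 0.040 after 3 days of +15 D, and without both birds 5 and 6, an alternative chosen after seeing the data, the -15 D, 3-day value was 0.094. Of the 12 member probe sets, array weights called 6 at -15 D, 3 days, against 5.95% of all probe sets, and 1 at -15 D, 6 hours, against 0.771%. The fit of only the arrays compared called 1 at -15 D, 3 days, against 1.71%. The values of -15 D, 3 days, chose the genes, so nothing is read from the counts of that condition. The other alternatives with all birds called none. Counts of all probe sets called moved more. Main counts were 15, 3, 27 and 2 for -15 D and +15 D at 6 hours and -15 D and +15 D at 3 days. Without the replicate block they were 0, 0, 0 and 2, and with only the arrays compared 0, 0, 656 and 0. With array weights they were 296, 3, 2284 and 9. With probe sets above background only, -15 D gave 70 at 6 hours and 114 at 3 days, and with a trended, robust prior 73 and 75. Centring of arrays gave 3 for -15 D at 3 days, and leaving out birds 5 and 6 gave 1. With 1 bird left out the counts ran from 0 (without bird 3) to 16, 0 to 1, 3 to 6 and 2 to 3, so that -15 D at 3 days and +15 D at 6 hours lost calls whichever bird was left out, and from 508 to 1129 for control eyes (748), the highest without bird 1 of +15 D, 6 hours. The cause of these shifts was not tested. The pairing changed no member call in the main comparisons. The planned search for promoter motifs was not run.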
